A study of Mus musculus with 6 samples.

Results

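Transcripts of 10 genes that encode sodium-coupled and facilitative sugar transporters and their close relatives were measured in whole kidneys of mouse pups raised by iron-deficient (FeD) or iron-sufficient dams. The genes were taken by symbol from a table of 24422 genes, and all 10 were found, 6 of the Slc5a family (Slc5a1, Slc5a2, Slc5a8, Slc5a9, Slc5a10, Slc5a12) and 4 of the Slc2a family (Slc2a2, Slc2a4, Slc2a5, Slc2a9). All pups were wild type C57BL/6 mice at postnatal day 15 (P15). Females aged 8 weeks were fed either a synthetic low-iron chow (2 to 6 ppm iron) or chow with 220 ppm iron, were mated to C57BL/6 males after 1 month by the labels, which are followed here (3 weeks by the methods of the paper), and stayed on their diet through pregnancy and nursing. There were 3 control and 3 FeD kidneys, each sequenced as its own library, with 13732173 to 20853293 gene counts per library, and markers of the kidney (Podxl, Lrp2, Umod, Aqp2) were abundant in each. Because the diet was given to the dams, FeD and control pups had different dams, and diet cannot be told apart from dam or litter. The labels give neither the litter of each pup nor the number of litters per group. A supplemental legend refers to littermate controls for its models together. P values reflect only the spread between these kidneys, which may share a litter within a group.

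Filtered glucose is recovered almost entirely in the proximal tubule. SGLT2 (Slc5a2), a high-capacity cotransporter of the early segment, and SGLT1 (Slc5a1), a high-affinity cotransporter of the late segment, bring glucose into the cell along the sodium gradient, and GLUT2 (Slc2a2) lets it leave on the blood side. Their relatives carry other sugars or organic anions, among them fructose and mannose (Slc5a10, Slc5a9, Slc2a5), lactate (Slc5a8, Slc5a12) and urate (Slc2a9), whereas GLUT4 (Slc2a4) is best known as the insulin-responsive carrier of fat and muscle.

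The transporters did not move as a group in FeD kidneys. Slc5a2 fell to a small fraction of its control level, Slc5a1, Slc2a4 and Slc2a5 fell by less than 2-fold, Slc5a10 and Slc2a9 rose more than 2-fold, and Slc5a8 rose slightly, when libraries were scaled by TMM, the trimmed mean of M-values. Of the 10 members, 4 were lower and 3 higher at an adjusted P (Padj) under 0.05 (quasi-likelihood test of edgeR, Benjamini-Hochberg correction over all 15145 tested genes), beside 23.3% of tested genes lower and 22.4% higher. Together 7 of 10 members passed, beside 45.7% of all tested genes. With a 2-fold threshold added, 1 member was lower (5.69% of tested genes) and 2 were higher (4.34%). The normalized counts of the same number of members, 7 of 10, did not overlap between the groups, beside 58.1% of tested genes. The median log2 fold change of the members was -0.22, beside -0.0018 for all tested genes.

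**Figure D1:**
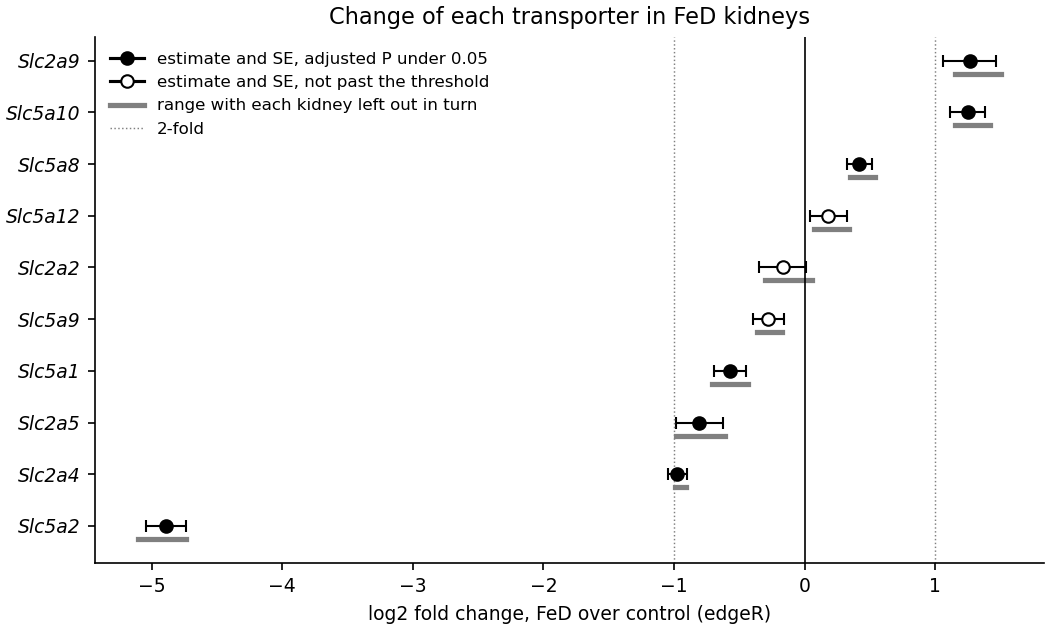
Log2 fold change of each transporter (FeD over control, edgeR, TMM scaling) with its standard error, filled where Padj was under 0.05, and the range with each kidney left out in turn. Slc5a2, at -4.89, stood far below the other members, which ranged from -0.97 to 1.26, and scaling to proximal tubule markers instead, which moved the median of all tested genes to 0.94, turned Slc5a1, Slc5a9, Slc2a2 and Slc2a5 positive, still below that median.

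Slc5a2 (chr7:135409171-135415944, mm9, plus strand) was measured at 6105, 6536 and 6659 normalized counts in control kidneys 1, 2 and 3, and at 175, 199 and 273 in FeD kidneys 1, 2 and 3. Every FeD kidney held a small fraction of the lowest control value, and the deposited counts behind the FeD values were 175, 153 and 316. The mean was 29.9-fold lower in FeD, a log2 fold change of -4.89±0.15 (SE, Padj = 3.34e-06 by edgeR with Benjamini-Hochberg). Only 7 of 15145 tested genes had a more negative log2 fold change. The exons of BC017158 on the opposite strand cover 20.6% of the exon bases of Slc5a2, and because the strand setting of the counting was not given, reads there cannot be assigned to either gene. BC017158 itself gave 426±36.6 normalized counts in control and 389±58.8 in FeD (SD, n = 3 each), and its groups overlapped.

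Slc5a1 (chr5:33446868-33505521, mm9, plus strand) was at 1723, 1867 and 1857 normalized counts in control and 1175, 1019 and 1472 in FeD kidneys. The groups did not overlap, and FeD kidney 3 lay nearest to the control values. The log2 fold change was -0.57±0.12 (SE, Padj = 0.00615 by edgeR with Benjamini-Hochberg), with 0.38 in place of -0.57 when libraries were scaled to proximal tubule markers. Within each kidney, the ratio of Slc5a2 to Slc5a1 counts per kilobase of exon was 5.04, 4.97 and 5.10 in control and 0.212, 0.277 and 0.264 in FeD. The order of the pair was thus inverted in each FeD kidney, on a scale that does not depend on how libraries are normalized. On the log2 scale, the ratio of Slc5a1 to Slc5a2 went from -2.33±0.02 to 2.01±0.21 (SD, n = 3 each), a difference of 4.34 (two-sided exact permutation test, P = 0.10, the smallest that 3 against 3 kidneys allow). In bulk tissue, fewer cells of a type and less RNA per cell cannot be told apart.

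Slc5a10, which encodes SGLT5, a cotransporter of mannose and fructose in the kidney, moved the other way. It was at 1375, 1410 and 1364 normalized counts in control and 3518, 3817 and 2528 in FeD kidneys (chr11:61486283-61534328, mm9, minus strand). All FeD kidneys were above all control kidneys, with kidney 3 the lowest of the FeD group. The mean was 2.38-fold higher, a log2 fold change of 1.25±0.14 (SE, Padj = 0.000288 by edgeR with Benjamini-Hochberg). Of its exon bases, 16.6% lie opposite exons of Fam83g and 4 bases opposite Grap, and both of those genes were lower in FeD, at 226±18.8 and 160±16.0 (Fam83g) and 363±6.81 and 193±17.8 (Grap) normalized counts in control and FeD (SD, n = 3 each). The call for Fam83g was lost without control kidney 3 and without control kidney 1 and FeD kidney 2 together, an alternative chosen after seeing the data. Slc5a9, which encodes SGLT4, another mannose and fructose cotransporter, was at 528 to 649 normalized counts in control and 433 to 549 in FeD kidneys. Its groups overlapped, and its log2 fold change of -0.28±0.12 (SE) did not pass (Padj = 0.0877 by edgeR with Benjamini-Hochberg), although it did with the replicate number as a block (log2 fold change -0.28, Padj = 0.0344).

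The start regions of the members were read from RefSeq promoters (GRCm38.p6), in which 6 of the 10 members had an entry, 7 windows in all, and Slc5a2, Slc5a9, Slc5a12 and Slc2a4 had none. The 250 bases before each start were searched on both strands for CAAAGTCC (hepatocyte nuclear factor 4), ACGTG and GCGTG (cores of the hypoxia response element), which occur in 1.2%, 16.6% and 28.2% of 32851 promoters. Bases 150 to 51 before the start are given here, with matches in capitals, for the pair of members that rose at least 2-fold and for the cotransporter that fell beside Slc5a2.
Slc5a10 (first start, chr11:61720850-61720949, minus strand): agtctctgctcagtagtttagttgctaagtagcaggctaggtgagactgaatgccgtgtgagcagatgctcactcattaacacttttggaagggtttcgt
Slc2a9 (chr5:38483436-38483535, minus strand): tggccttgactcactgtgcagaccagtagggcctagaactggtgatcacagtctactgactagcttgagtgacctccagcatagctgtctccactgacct
Slc5a1 (chr5:33104069-33104168, plus strand): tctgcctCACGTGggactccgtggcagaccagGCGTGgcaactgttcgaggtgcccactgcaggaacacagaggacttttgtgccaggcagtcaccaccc
In Slc5a1 the capitals mark ACGTG on both strands, overlapping each other from 143 to 138 bases before the start, and GCGTG from 118 to 114. Slc5a8 held GCGTG from 175 to 171 bases before its start, and none of the letters searched occurred in the windows of Slc2a2, Slc2a5, Slc2a9 or either start of Slc5a10. The matches are descriptions of the letters, and binding was not measured.

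Slc5a8 and Slc5a12 encode SMCT1 and SMCT2, which take up lactate and other monocarboxylates with sodium. Slc5a8 was at 3497, 3750 and 3670 normalized counts in control and 4973, 4185 and 5443 in FeD kidneys. Each FeD kidney was above the control range, with a log2 fold change of 0.42±0.10 (SE, Padj = 0.00876 by edgeR with Benjamini-Hochberg). Slc5a12 had 9872, 11213 and 9764 normalized counts in control and 12202, 13605 and 9148 in FeD kidneys. FeD kidneys 1 and 2 were above and kidney 3 below all controls, and the log2 fold change of 0.18±0.14 (SE) did not pass (Padj = 0.327 by edgeR with Benjamini-Hochberg). It ranged from 0.07 (without FeD kidney 2, Padj = 0.675) to 0.34 (without FeD kidney 3, Padj = 0.0102, the only call) with each kidney left out, and was 0.03 without control kidney 1 and FeD kidney 2 together (Padj = 0.888, all by edgeR with Benjamini-Hochberg).

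**Figure D2:**
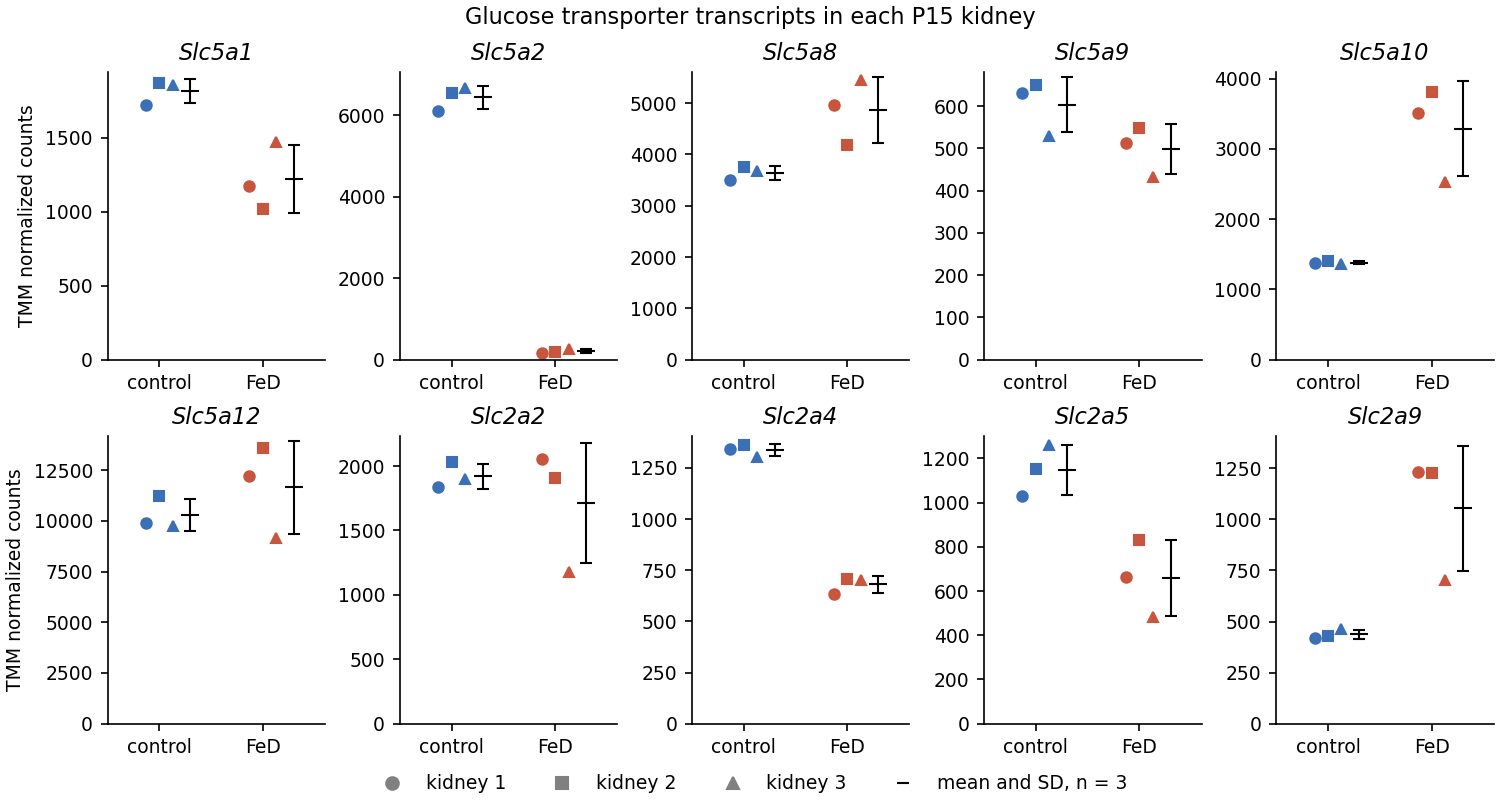
TMM normalized counts of each transporter in the 3 control and 3 FeD kidneys, with the mean and SD of each group. The groups were apart for 7 genes and overlapped for Slc5a9, Slc5a12 and Slc2a2. FeD kidney 3 (triangle) was the lowest of its group for Slc5a9, Slc5a10, Slc5a12, Slc2a2, Slc2a5 and Slc2a9, and the highest for Slc5a1, Slc5a2 and Slc5a8.

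Among the facilitative carriers, Slc2a2, the basolateral exit for glucose, was at 1837, 2029 and 1898 normalized counts in control and 2054, 1907 and 1181 in FeD kidneys. FeD kidneys 1 and 2 were near the control range and kidney 3 was far below it. The log2 fold change of -0.17±0.18 (SE) did not pass (Padj = 0.475 by edgeR with Benjamini-Hochberg), and it turned to 0.06 without FeD kidney 3. Slc2a5, which encodes the fructose carrier GLUT5 (chr4:149493392-149518278, mm9, plus strand), was at 1032, 1152 and 1260 normalized counts in control and 666, 830 and 482 in FeD kidneys. The groups did not overlap, and the log2 fold change was -0.81±0.18 (SE, Padj = 0.00697 by edgeR with Benjamini-Hochberg), with 0.12 when libraries were scaled to proximal tubule markers.

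Slc2a9, which encodes the urate carrier GLUT9 (chr5:38740512-38894382, mm9, minus strand), had 421, 430 and 463 normalized counts in control and 1234, 1228 and 703 in FeD kidneys. Kidneys 1 and 2 of the FeD group nearly coincided, and kidney 3 lay between them and the controls. The mean was 2.41-fold higher, a log2 fold change of 1.26±0.20 (SE, Padj = 0.0016 by edgeR with Benjamini-Hochberg). Slc2a4, which encodes GLUT4 (chr11:69756045-69761690, mm9, minus strand), was at 1345, 1364 and 1304 normalized counts in control and 634, 708 and 703 in FeD kidneys. These groups were tight and well apart, with a mean 1.96-fold lower in FeD and a log2 fold change of -0.97±0.07 (SE, Padj = 5.47e-05 by edgeR with Benjamini-Hochberg), just short of 2-fold. It was -0.03 and did not pass (Padj = 0.747) when libraries were scaled to proximal tubule markers.

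GLUT4 is abundant in fat and muscle, and genes of fat and smooth muscle moved in both directions. Of 6 adipocyte genes, 4 were lower (Adipoq, Plin1, Cidec, Ucp1) and 1, Fabp4, was higher. Plin1, which coats lipid droplets, went from 313±48.8 to 57.8±22.7 normalized counts, and Ucp1, the uncoupling protein of brown fat, from 820±188 to 119±125 (SD, n = 3 each). The log2 fold change of Ucp1 was -2.74 and ranged from -4.14 to -2.21 with each kidney left out. The call for Ucp1 was lost without control kidney 1 and FeD kidney 2 together, and that for Adipoq without control kidney 1 or 2. The summed list was higher in FeD, at 6934, 7559 and 7827 in control and 8466, 9776 and 8230 in FeD kidneys. Most of this sum was Fabp4, the most abundant, at 5502±358 in control and 8222±797 in FeD (SD, n = 3 each). The sum therefore followed Fabp4 and not the 4 genes that were lower. Of 5 smooth muscle genes, Myh11, Cnn1 and Des were lower and Tagln was higher, with Acta2 the most abundant and the sum at 5947, 6304 and 5190 in control and 5042, 4924 and 4759 in FeD kidneys. Skeletal muscle genes were close to 0, summing to 23.3 to 42.0 normalized counts apart from FeD kidney 1, where all 5 were highest and the sum was 185, with Acta1 at 112. The part of fat and smooth muscle in the fall of Slc2a4 was not tested.

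Per kilobase of exon, Slc5a12 had the highest level of the members in both groups, at 142±11.1 CPM (counts scaled to TMM-adjusted library size) per kilobase in control and 161±31.4 in FeD (SD, n = 3 each). Slc5a2 ranked 2 in control, at 124±5.62, and 10 in FeD, at 4.17±0.986, where its range overlapped that of Slc5a9. Rank 2 in FeD was taken by Slc5a10, which ranked 5 in control, at 32.8±0.578 and 77.9±16.0 CPM per kilobase in control and FeD. Control levels of Slc2a2 (39.1±2.00) and Slc5a8 (38.3±1.36) overlapped, whereas all other neighbours in the control order were apart. In FeD, Slc5a1 overlapped Slc2a4, Slc2a4 overlapped Slc2a9, and Slc2a9 overlapped Slc2a5. Slc2a9 was the lowest member in control (4.83±0.247) and ranked 7 in FeD (11.6±3.36). Slc5a2 made up 33.4%, 32.7% and 35.2% of the summed level of the 6 Slc5a members per kilobase in control kidneys and 1.03%, 1.11% and 1.93% in FeD kidneys. The summed Slc5a level per kilobase was 368±16.5 in control and 316±37.9 in FeD, with no overlap (two-sided exact permutation test, P = 0.10, the smallest possible), a smaller difference than that of Slc5a2 alone, whereas their summed normalized counts, 24157±1145 and 21742±2157, overlapped (P = 0.20).

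**Figure D3:**
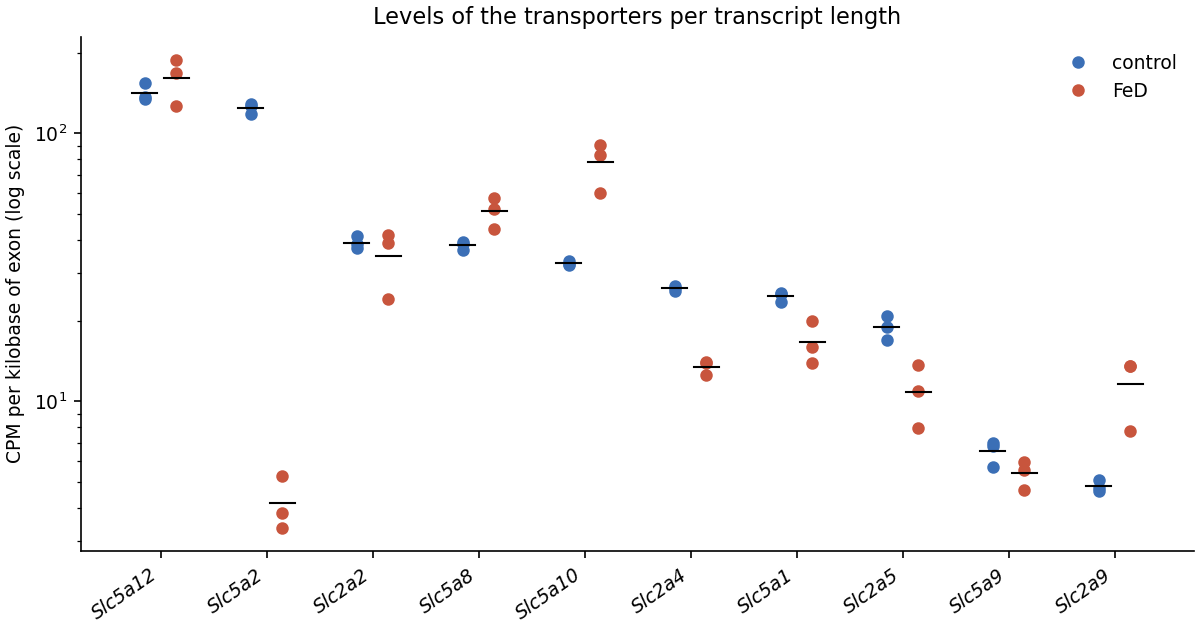
Levels of the transporters in CPM per kilobase of exon (log scale) in each kidney, ordered by the control mean (black bars, group means). Slc5a2 dropped from rank 2 to rank 10 and Slc5a10 went from rank 5 to rank 2.

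The members were next set against 12 general proximal tubule markers. In FeD, 9 of these were lower and 3 (Hnf4a, Slc27a2 and Acsm2) did not pass, and their median log2 fold change was -0.47. The calls for Anpep and Ass1 held under 4 and 8 of 14 alternatives. Their sum was 217618, 234216 and 228089 normalized counts in control and 120053, 123886 and 111343 in FeD kidneys, 52.3% of control. The phosphate transporter Slc34a1, the most abundant in control but not in FeD, fell from 71821±3243 to 15383±2192, and Miox, myo-inositol oxygenase, from 25705±947 to 2446±638 (SD, n = 3 each), the 2 genes of the list lower at least 2-fold. The sum was at 66.6% of control without Slc34a1 and, chosen after seeing the values, at 77.9% without both, and the endocytic receptor Lrp2 alone was at 71.7%. Relative to the summed list, 1 of 10 members, Slc5a2, was lower in FeD with no overlap (3.09% of tested genes), and 7 were higher with no overlap (83.2% of tested genes). The log2 difference for Slc5a2 was -3.99, from -5.14±0.04 to -9.13±0.40 (SD, n = 3 each, two-sided exact permutation test, P = 0.10, the smallest possible). The median log2 difference of the members was 0.70, beside 0.93 for all tested genes, so that most genes of the kidney stood higher on this scale. Slc2a4 (log2 difference -0.04) and Slc2a5 (0.11) overlapped. Relative to Lrp2 alone, Slc5a2 and Slc2a4 were lower and 4 members higher with no overlap (7.68% and 61.3% of tested genes), and relative to the list without Slc34a1 the same 2 were lower and 5 higher (6.18% and 69.2% of tested genes).

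When the whole fit was scaled to the summed proximal tubule list, the median log2 fold change of all tested genes became 0.94, 1 member was lower and 7 were higher, beside 2.61% and 82.8% of all tested genes. Taken from that median, Slc5a2 was at -4.88, Slc2a4 at -0.97, Slc2a5 at -0.81, Slc5a1 at -0.56, Slc5a8 at 0.43, Slc5a10 at 1.24 and Slc2a9 at 1.25 (log2). A change of scale moves all genes by nearly the same amount, so the order of the members was kept by construction. The early and late segments gave mixed pictures. Of 5 early proximal genes, Slc7a8 and Gatm were lower and Slc4a4 and Slc6a19 were higher. Gatm, the most abundant in control, fell from 17972±946 to 7214±548, and Slc4a4 was the most abundant in FeD. The sum was 33496, 37232 and 35470 in control and 29848, 28567 and 29114 in FeD kidneys. Of 7 late proximal genes, Slc7a13, Slc22a7 and Aadat were lower and Slc22a19 and Cyp7b1 were higher, with Aadat the most abundant and the sum at 32346, 34047 and 35705 in control and 22902, 23841 and 34120 in FeD kidneys. The calls for Aadat and Slc6a19 held under 9 and 13 of 14 alternatives. The part of cell numbers or tubule segments in the changes of the members was not tested.

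**Figure D4:**
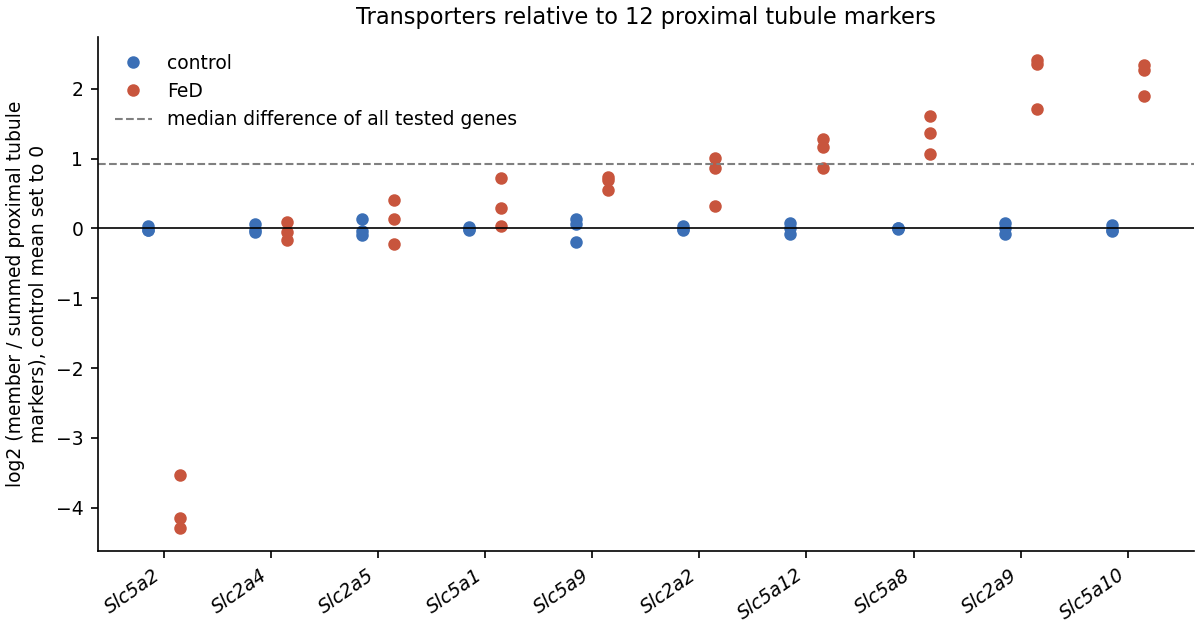
Log2 ratio of each transporter to the summed normalized counts of 12 proximal tubule markers in each kidney, with the control mean set to 0 and the median difference of all tested genes (0.93) as a dashed line. Slc5a2 alone lay below the controls in all FeD kidneys, and Slc5a10 and Slc2a9 lay highest.

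Across the 6 kidneys, the genes with the pattern most like that of Slc5a2 were Hhatl (distance 1.48), Slc22a7 (1.58) and Slc34a3 (1.89), by Euclidean distance of log2 CPM after subtraction of the control mean among 12951 genes averaging 50 or more normalized counts. Within FeD, Slc5a2 and Slc22a7 were highest in kidney 3, where Slc34a3 was lowest, and Hhatl was highest in kidney 1. These genes thus shared the size of the fall more than the order of the FeD kidneys. Slc22a7 encodes an organic anion carrier and Slc34a3 a sodium-phosphate cotransporter, and the means in control and FeD were 155±11.9 and 5.30±3.31 normalized counts for Hhatl, 472±15.5 and 29.2±9.10 for Slc22a7, and 748±56.9 and 31.0±20.0 for Slc34a3 (SD, n = 3 each). For Slc2a2, the most abundant Slc2a member, they were Tmem191c (0.135), Ubox5 (0.142) and Zfp775 (0.166), all of which were lowest in FeD kidney 3.

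Of the 7 other Slc5a genes, 3 passed the filter on low counts and 2 of these were lower, Slc5a6 and Slc5a11, and the call for Slc5a6 was lost without control kidney 3 and without control kidney 1 and FeD kidney 2 together. Slc5a11, which encodes a sodium-coupled carrier of myo-inositol and glucose (SMIT2), was at 774, 921 and 940 normalized counts in control and 294, 257 and 259 in FeD kidneys. This fall (log2 fold change -1.70±0.11, SE, Padj = 3.13e-05 by edgeR with Benjamini-Hochberg) left every FeD kidney far below the controls. Slc5a3, the other inositol carrier and the most abundant of the list, was at 9298±782 and 9408±3488 in control and FeD (SD, n = 3 each). Of the 8 other Slc2a genes, 7 passed the filter, 1 was lower (Slc2a12) and 1 higher, Slc2a3, which encodes GLUT3, from 57.5±29.9 to 166±57.6 normalized counts. The call for Slc2a3 was lost without control kidney 2 or 3, and that for Slc2a12 without control kidney 2 and without control kidney 1 and FeD kidney 2 together. The most abundant, Slc2a1 (GLUT1), was at 2828±304 and 3607±657.

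Genes around the transporters were also counted. Calls in these and the other gene lists stand beside 23.3% of all tested genes lower and 22.4% higher. The median log2 fold change was -0.36 for the other Slc5a genes, 0.34 for the other Slc2a genes, and -0.50 for accessory proteins, beside -0.0018 for all tested genes. All 3 tested accessory proteins were lower, among them the scaffold Pdzk1, the most abundant, from 20743±1043 to 8783±935 normalized counts (log2 fold change -1.24±0.10, SE), and Pdzk1ip1, the SGLT2-binding protein MAP17, whose call (log2 fold change -0.25, Padj = 0.0496 by edgeR with Benjamini-Hochberg) held under 4 of 14 alternatives. The accessory list summed to 57.0% of control, beside 52.3% for the proximal tubule list. Of the nuclear factors Hnf4a and Hnf4g, which drive proximal tubule genes, Hnf4g alone was called, and it was higher (81.4±19.3 and 149±41.1 normalized counts), a call that held under 8 of 14 alternatives. Hnf4a, the more abundant, was at 8041±314 and 6820±1356. Neither of 2 genes of the sodium gradient (Atp1b1, Slc9a3) passed by edgeR or by DESeq2, with 1 of 2 at an unadjusted P under 0.05 by edgeR, although Slc9a3 passed under 2 of 14 alternatives (without FeD kidney 3 and with the replicate block), and Atp1b1, the more abundant, was at 62094±3466 and 54068±5168 normalized counts.

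Enzymes of fructose and sorbitol use fell with Slc2a5, 4 of 4 tested (6 listed), beside 23.3% of all tested genes lower. Their median log2 fold change was -1.12 beside -0.0018 for all tested genes. The call for Sord, the most abundant of the list (17184±600 and 12514±2212 normalized counts), held under 11 of 14 alternatives. The sum of these enzymes was at 59.0% of control, beside 52.3% for the proximal tubule list. Khk, ketohexokinase, the entry step, was at 6972, 7406 and 7296 normalized counts in control and 2884, 2824 and 2768 in FeD kidneys. Its groups were tight and apart (log2 fold change -1.35±0.06, SE, Padj = 8.86e-06 by edgeR with Benjamini-Hochberg). Tkfc, which phosphorylates glyceraldehyde, and Glyctk, glycerate kinase, had log2 fold changes of -1.18 and -1.05. Of 7 tested genes of glucose release and phosphorylation, Fbp1 and Hk1 were lower, the median log2 fold change was 0.0018, and Hk2, hexokinase 2, was higher, from 113±8.35 to 260±50.4. Pck1, the most abundant, was at 49374±2789 and 53539±10746. Of 7 genes of the monocarboxylate carrier family (Slc16a) and of lactate dehydrogenases, 3 were lower and 1 was higher, with a median log2 fold change of -0.05. Those lower were Slc16a4 (log2 fold change -1.54±0.24, SE), Ldhb, the most abundant (26324±680 and 17422±1322 normalized counts), and Slc16a7, whose call held under 9 of 14 alternatives. Slc16a3 was higher (1.28±0.22, SE).

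Urate carriers moved in both directions beside the rise of Slc2a9. Of 7 tested, 5 were lower, all by at least 2-fold, and Slc17a1 and Abcg2 were higher, and the median log2 fold change was -1.08. Of all tested genes, 23.3% were lower, 5.69% lower at least 2-fold and 22.4% higher. Slc22a12, which encodes the apical urate exchanger URAT1, was at 4069, 4164 and 3590 normalized counts in control and 730, 1132 and 445 in FeD kidneys. It fell in every FeD kidney (log2 fold change -2.37±0.28, SE, Padj = 0.000383 by edgeR with Benjamini-Hochberg). The log2 fold changes of the organic anion transporters Slc22a8, Slc22a6 and Slc22a13 were -2.06, -1.08 and -1.07, and that of Slc17a3 was -1.09. Slc22a8 was the most abundant in control, and Slc17a1 in FeD. The call for Slc22a6 was lost without FeD kidney 1, and that for Abcg2 without control kidney 1 and FeD kidney 2 together.

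Markers of other cells were present or moved as well. The 3 podocyte genes and 3 thick ascending limb genes gave no call by edgeR (0 and 1 genes at an unadjusted P under 0.05, and 0 and 1 calls by DESeq2), with Podxl and Slc12a1 the most abundant and sums at 96.4% and 93.2% of control. Of 3 distal convoluted tubule genes 2 were lower (Slc12a3, the most abundant, and Pvalb), and the sum was at 34.4% of control. Of 4 principal cell genes 3 were higher (Aqp2, the most abundant, Aqp3 and Scnn1g) and 1 lower (Avpr2) and the sum was at 206% of control. Of 4 intercalated cell genes 2 were lower (Slc4a1, the most abundant in control but not in FeD, and Slc26a4) and 1 higher (Foxi1), and the sum was at 63.6%. The calls for Avpr2 and Foxi1 held under 11 and 12 of 14 alternatives. Of 5 liver genes, 3 were higher (Ttr, Serpina1a and Apoa2), with Ttr the most abundant in FeD and Serpina1a slightly above it in control. The sum was 1598, 1710 and 1726 in control and 5653, 5060 and 5559 in FeD kidneys, whereas Alb was at 15.1±6.24 and 14.7±15.7. Among small intestine genes, Fabp2 and Sis were at 0 in all kidneys, and the sum (1274 to 1872) was almost all Vil1, which is also a brush border gene of the kidney. Globin symbols were listed at 0 in all kidneys, and the only measured red cell gene, Alas2, was at 528±216 and 235±163.

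Adrenal cortex genes summed to 10416 normalized counts in FeD kidney 2, 1278 in control kidney 1 and 134 to 209 in the other 4 kidneys. Star was the most abundant except in control kidney 1, where Hsd3b1 was at 989 and Star at 166 normalized counts. Star was higher in FeD, a call that held under 5 of 13 alternatives. Without control kidney 1 and FeD kidney 2, an alternative chosen after seeing the data, 4 members were again lower and 3 higher (15.8% and 14.9% of tested genes), and Slc2a5 passed 2-fold (log2 fold change -1.06). Xist, transcribed from the inactive X of females, was at 15410, 14238 and 41.8 normalized counts in control and 28.0, 48.0 and 16079 in FeD kidneys, and Y-linked genes were high in the kidneys with low Xist. FeD kidney 3 was the only one of its group with high Xist. It was the lowest FeD kidney for 6 of the members and the highest for Slc5a1, Slc5a2 and Slc5a8. The share of all tested genes lowest in that kidney is not given here. With high or low Xist as a term in the fit, also chosen after seeing the data, 4 members were lower and 3 higher (22.6% and 21.5% of tested genes), and the log2 fold changes of Slc5a2, Slc5a10, Slc2a9 and Slc2a2 were -4.85, 1.14, 1.07 and -0.32.

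**Figure D5:**
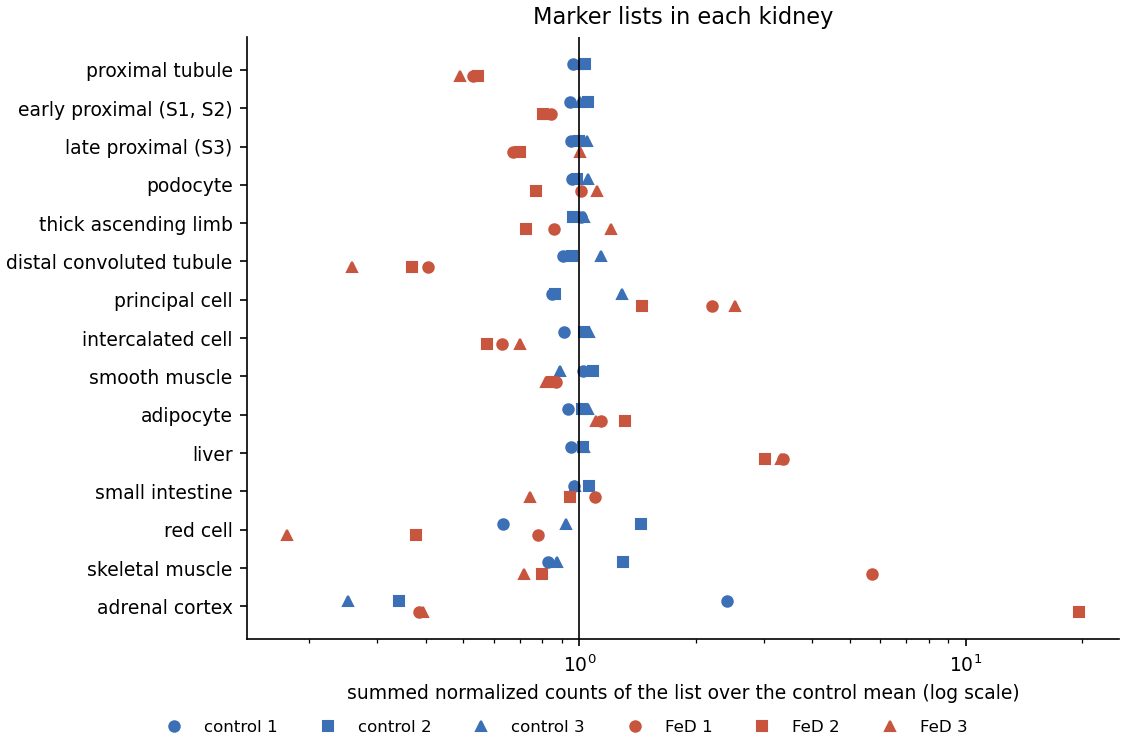
Summed normalized counts of each marker list in each kidney over the control mean (log scale). Proximal tubule and distal convoluted tubule lists were lower and principal cell and liver lists higher in all FeD kidneys, and adrenal cortex genes were high in FeD kidney 2.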

How the data were processed

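Whole kidneys of 3 control and 3 FeD pups were sequenced by the authors as single-end reads from polyadenylated RNA (TruSeq, HiSeq2000). Per the submitters' processing notes and methods, CASAVA 1.8.2, Trimmomatic, TopHat2 2.0.11 (mm9, uniquely mapped reads) and HTSeq gave raw counts per gene, which the authors deposited. The gene annotation and strand setting were not given in the sources used here. Counts of all genes that passed filterByExpr were fitted with edgeR 4.0.16 (R 4.3.3), and DESeq2 1.42.0 served as an alternative. Both were tested on simulated data. TMM factors and library totals scaled each library to the mean of the 6 to give normalized counts. Precision follows the counts, and 3 counts correspond to 0.145 to 0.218 CPM. Exon lengths and overlaps came from GENCODE (mm9). Named genes were all members, genes of pathway lists that changed at least 2-fold, the most abundant gene of each pathway and marker list, genes overlapping a member, and nearest patterns, and others complete a count or, like Miox, were chosen after their values were seen. Some listed genes and a promoter motif are not reported here. Members and lists were chosen with earlier results of these data known. Alternatives changed the scaling, filter, test, replicate block, kidneys used and marker denominator. Adrenal genes and Xist were added as alternatives after seeing the data.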

Additional observations from a re-analysis of the deposited data

How the results depend on the processing

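The 7 calls among the members held in each of the 14 alternatives other than scaling to proximal tubule markers. Scaled to the summed proximal tubule list, which moved the median log2 fold change of all tested genes to 0.94, 1 member was lower, 7 were higher (2.61% and 82.8% of tested genes) and 4 were higher at least 2-fold, and the log2 fold changes of Slc5a1, Slc5a9, Slc2a2 and Slc2a5 turned to 0.38, 0.66, 0.76 and 0.12 and that of Slc2a4 to -0.03 with no call, as a change of scale for all genes does by construction. Without control kidney 1 and FeD kidney 2, chosen after seeing the data, 2 members were lower at least 2-fold. The shares of all tested genes at 2-fold are not given here for this alternative or for proximal tubule scaling, so these 2-fold counts have no background beside them. The log2 fold change of Slc2a2 ranged from -0.305 to 0.057 with each kidney left out, and was 0.057 without FeD kidney 3. The cause was not tested. The number of members lower relative to proximal tubule markers was 2 with Lrp2 alone, 2 without Slc34a1, and 1 to 2 with each kidney left out. The log2 difference in the ratio of Slc5a1 to Slc5a2 kept its sign throughout. With the replicate number as a replicate block, 5 members were lower and 3 higher (22.1% and 20.5% of tested genes), Slc5a9 being added, and no other member's call changed, although same-numbered kidneys share only a number and none correlated best with its own number (correlations of their deviations from the group means -0.162, 9.57e-05 and -0.0348). Leaving out globin and mitochondrially encoded genes, as planned, was not run, since globin symbols were at 0 counts in all kidneys and no mitochondrially encoded gene was in the table. Low depth did not limit the members, which had at least 153 counts in each kidney.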
